A study of Mus musculus with 5 samples.

Results

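Genes of the fetal liver program and regulators of the liver lineage were followed across tumor endothelium, normal liver endothelium and cultured hepatoma cells. They were Hnf4a, Foxa1, Foxa2, Foxa3, Afp, Gpc3, H19, Dlk1 and Meg3, taken by gene name with every probe that carried the name, which gave 9 of 37074 gene names and 17 of 56605 probes on a mouse 60-mer array. Their levels were measured on 5 Agilent arrays with 1 color, 1 array per condition. Liver sinusoidal endothelial cells (LSECs) came from mouse liver. Tumor endothelial cells (TECs) were the CD31-positive cells that magnetic beads took from collagenase-digested liver tumors of HAK-1B and KYN-2, which are human hepatoma lines, and of Hepa1-6, a mouse hepatoma line. The fifth array held Hepa1-6 cells grown in culture. The labels give strain C57BL/6 for LSECs and all TECs and strain C57L for the cultured cells, whereas the methods name females, 6 weeks of age, of C57BL/6 or of BALB/c nu/nu, nude mice that keep B cells and innate immune cells but lack mature T cells. No drug, transgene or deletion is named for these 5 samples, and how many animals stand behind an array is not given. The methods of the arrays name Huh-7 where the labels name HAK-1B.

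Hepatocytes and their precursors keep their identity through a network of transcription factors that bind each other's genes. HNF4A is a nuclear receptor that drives much of the hepatocyte program, and FOXA1, FOXA2 and FOXA3 are forkhead factors, the first of which open liver enhancers in the embryo. AFP is the main serum protein of the fetus and is silenced after birth, GPC3 is a cell surface heparan sulfate proteoglycan, and both return in many liver cancers. H19, Meg3 and Dlk1 are imprinted genes of the fetal liver, the first pair being noncoding RNAs expressed from the maternal copy and the last a membrane protein of hepatoblasts expressed from the paternal copy.

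The Afp promoter ties these genes together, since factors of the FOXA family are known to act there. It is shown from the RefSeq table of build GRCm38.p6, chr5:90490464-90490713 on the plus strand, the 250 bases before the start of the gene, with capitals at letters of the FOXA search.

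Afp promoter: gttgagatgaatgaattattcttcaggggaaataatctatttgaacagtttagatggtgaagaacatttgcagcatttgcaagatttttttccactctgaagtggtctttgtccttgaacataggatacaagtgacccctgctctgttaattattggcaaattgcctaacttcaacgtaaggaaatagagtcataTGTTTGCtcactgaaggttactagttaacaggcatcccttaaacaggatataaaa

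The letters TGTTTAC and TGTTTGC were searched for FOXA, and CAAAGTCCA and CAAAGTTCA for HNF4, on both strands and with overlaps allowed. The Afp promoter held FOXA letters 55 bases before the start. Of all 32851 promoters of this length in the table, 7.29% held FOXA letters and 0.715% HNF4 letters. A promoter was found for 8 of the 9 genes, with 12 promoters in all. The Foxa1 promoter held FOXA letters at 1 place and the Dlk1 promoter at 2. The promoters of Hnf4a, Foxa2, Foxa3, Gpc3 and Meg3 held none of these letters in this window. These matches are a description of the letters and were not tested against the arrays.

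The probe sequences that bear on the values below are those of genes whose probes disagreed and those of the closely related Foxa genes. The H19 probes lie on the noncoding RNA at chr7:149761492-149761551 and chr7:149762173-149762232 and the shown Hnf4a probe at chr2:163378302-163378361, in mm9 as the array design gives positions. All letters are in lower case, since no part is singled out.

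H19, first probe: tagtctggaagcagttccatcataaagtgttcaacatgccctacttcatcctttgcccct

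H19, second probe: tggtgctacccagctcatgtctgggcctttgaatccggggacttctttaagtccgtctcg

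Hnf4a, second probe: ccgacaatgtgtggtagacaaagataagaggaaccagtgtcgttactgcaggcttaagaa

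Foxa1, first 30 bases: gcatggtttactccttttctttacagccga

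Foxa2, first 30 bases: cgggtctgatttaatttatggtttctgcgt

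Foxa3, first 30 bases: tgaccttttgagtatgtgacagaacacatc

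Laid over each other without gaps at any offset, the 60-base probes of Foxa1, Foxa2 and Foxa3 matched at no more than 20 to 22 bases in any pair, and their longest shared run was 5 to 7 bases. The 3 probes were therefore distinct sequences. Each of these genes had 1 probe, at chr12:58641764-58641823 for Foxa1, chr2:147868669-147868728 for Foxa2 and chr7:19599053-19599112 for Foxa3, all on the minus strand.

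Levels below are log2 signals after quantile normalization over the 5 arrays, for the brightest probe of a gene unless another is named. A probe counts as measured, or lit, on an array when the scanner software flagged it well above background, and otherwise as dark. No level of 1 probe was set against that of another probe. Lit probes made up between 44.6% (cultured Hepa1-6) and 78.1% (Hepa1-6 TEC) of an array. Spots repeated within an array had a median coefficient of variation of 2.62% to 3.08%, which leaves out the spread between animals and cultures. With 1 array per condition no difference has a replicate check, and no test or p-value is given. The lowest lit log2 signal was 5.96 in cultured cells, 4.68 in LSEC, 4.65 in KYN-2 TEC, 4.28 in HAK-1B TEC and 2.85 in Hepa1-6 TEC. A gene below an array's lowest lit signal has only an upper bound there, and a dim gene could be lit on the Hepa1-6 TEC array at a level that no other array could light. Where a gene was measured on 1 of 2 arrays, a fold is given as a lower bound ("at least").

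Hnf4a was brightest in cultured Hepa1-6 cells. Its brighter probe (chr2:163398548-163398607) read 13.52 in cultured Hepa1-6, 10.13 in Hepa1-6 TEC, 8.46 in LSEC and 5.45 in KYN-2 TEC. On the HAK-1B TEC array it read 3.94, not well above background. The second probe, printed above, read 7.50 in cultured Hepa1-6 and 4.53 in Hepa1-6 TEC, and it was not well above background on the other 3 arrays. Both probes thus put cultured Hepa1-6 first, and the brighter probe put Hepa1-6 TEC next. The second probe cannot rank Hepa1-6 TEC, since 4.53 lay under the lowest lit signal of LSEC (4.68) and KYN-2 TEC (4.65).

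Foxa1 was well above background only in Hepa1-6 TEC and cultured Hepa1-6. It read 10.44 in Hepa1-6 TEC and 8.38 in cultured Hepa1-6, and 2.82 to 3.58 on the other 3 arrays, where it was not well above background. It was the one Foxa gene with a higher signal in Hepa1-6 TEC than in the cultured line. The Hepa1-6 TEC array lit many genes that were dark elsewhere. It had 5351 of 11298 genes (47.4%) lit that were dark on the other 4, against 1.67% to 4.17% for the same count on each other array. Of 12252 genes dark in LSEC and in the TECs of both human tumors, 700 or 5.71% were lit on both Hepa1-6 arrays, as Foxa1 was.

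Foxa2 differed between the single TEC arrays of the human tumors. It read 13.08 in cultured Hepa1-6, 12.07 in Hepa1-6 TEC, 11.56 in KYN-2 TEC and 5.32 in LSEC. In HAK-1B TEC it read 2.26 and was not well above background. Of the 5 arrays 3 were high, LSEC was low and HAK-1B TEC was dark. The paper states that some cancer cells are inevitably carried along in the isolation of TECs. It also reports the purity of the isolated TECs by FACS, and it removed genes related to cancer cells from its TEC-specific genes. The part of carried-over cancer cells in the Foxa2 levels was not tested. The array probes are mouse sequences, and how far they read RNA of human tumor cells was not tested for any gene.

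Foxa3 was measured on all arrays except that of LSECs. It read 9.88 in cultured Hepa1-6, 7.16 in Hepa1-6 TEC, 6.36 in KYN-2 TEC and 5.79 in HAK-1B TEC, and 3.51 in LSEC, not well above background. All 3 TECs lay between LSEC and the cultured line.

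Afp was very high on both Hepa1-6 arrays and far lower, though measured, on the others. The probe (chr5:90937781-90937840) read 15.92 in cultured Hepa1-6 and 15.38 in Hepa1-6 TEC. It read 8.06 in KYN-2 TEC, 7.80 in LSEC and 6.21 in HAK-1B TEC, all well above background. Before normalization the background-subtracted signals were 104380 in cultured Hepa1-6, 47243 in Hepa1-6 TEC, 249 in LSEC, 158 in KYN-2 TEC and 71.1 in HAK-1B TEC.

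Gpc3 had the same 2 arrays on top in the opposite order. Its probe at chrX:49625627-49625686 read 10.13 in Hepa1-6 TEC, 9.52 in cultured Hepa1-6, 7.51 in HAK-1B TEC, 5.60 in LSEC and 6.09 in KYN-2 TEC. A second probe, designed on a cDNA clone at chrX:49740892-49740951, was not well above background on any array.

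H19 was lit in LSEC and all 3 TECs and dark in the cultured tumor line. The first probe read 9.71 in KYN-2 TEC, 8.73 in Hepa1-6 TEC, 8.37 in HAK-1B TEC and 5.23 in LSEC, and 4.87 in cultured Hepa1-6, not well above background. The second probe, of the lincRNA set of the array, read 10.37 in KYN-2 TEC, 5.01 in HAK-1B TEC and 3.58 in Hepa1-6 TEC, and was not well above background in LSEC and cultured Hepa1-6. Both probes had KYN-2 TEC highest and were dark in the cultured line, but they ordered the other TECs differently.

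Meg3 was dim in LSEC and the TECs, with the lowest normalized level of these 4 in Hepa1-6 TEC. Its brightest probe (chr12:110783470-110783529), designed on a spleen cDNA clone, read 6.59 in KYN-2 TEC, 6.55 in LSEC, 6.52 in HAK-1B TEC and 5.24 in Hepa1-6 TEC. A probe designed on a RefSeq transcript (chr12:110809678-110809737) gave the same picture, at 5.79, 5.64, 5.60 and 4.19. The 3 further Meg3 probes, also designed on RefSeq transcripts, did not show it. Of these, 1 was lit on the Hepa1-6 TEC array alone, at 4.30, close to or under the lowest lit signal of the other arrays. The other 2 were lit on no array. Before normalization the brightest Meg3 probe read 102 in LSEC, 54.2 in KYN-2 TEC, 80 in Hepa1-6 TEC and 89.3 in HAK-1B TEC. The place of Hepa1-6 TEC thus rests on the normalization. No Meg3 probe was well above background in cultured Hepa1-6. Dlk1, from the same imprinted cluster, had 2 probes, and neither was well above background on any of the 5 arrays, with log2 signals of 2.70 to 4.02.

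**Figure D1:**
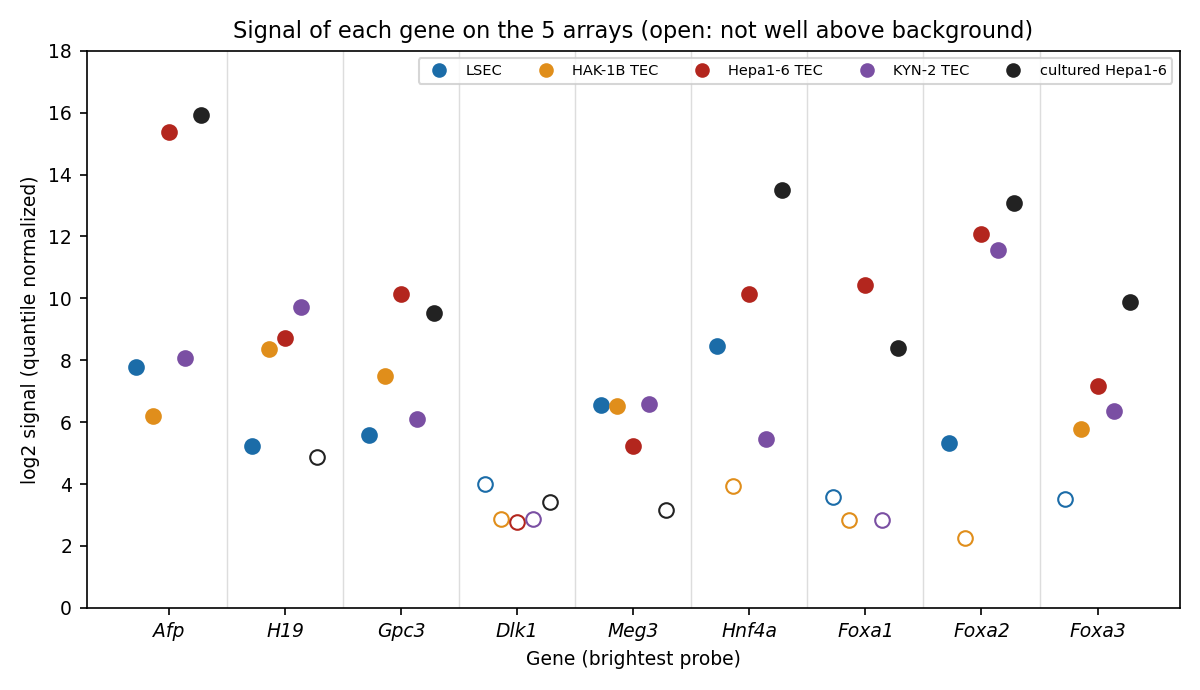
Normalized log2 signal (y axis) of the brightest probe of each of the 9 genes (x axis) on the 5 arrays, 1 point per array, with open points not well above background. Afp read 15.92 and 15.38 on the 2 Hepa1-6 arrays and 6.21 to 8.06 on the others, and Dlk1 was open on every array.

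**Figure D2:**
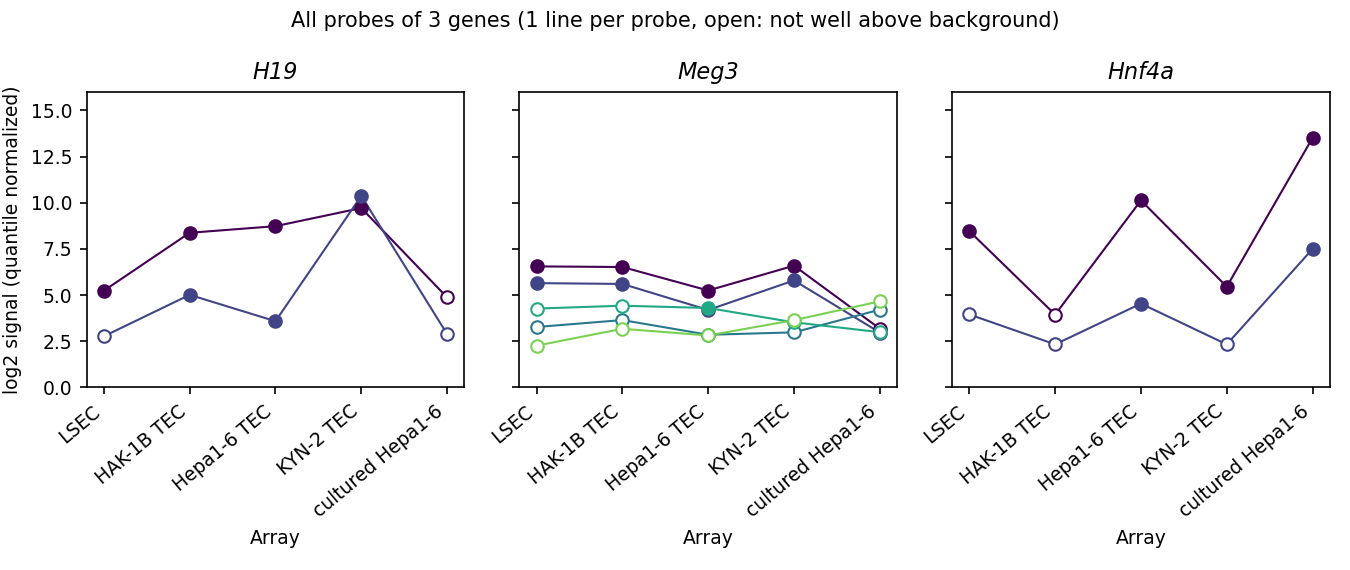
Normalized log2 signal (y axis) of every probe of H19, Meg3 and Hnf4a on the 5 arrays (x axis), 1 line per probe, with open points not well above background. Both H19 probes peak in KYN-2 TEC, at 9.71 and 10.37 on their own scales, and both Hnf4a probes peak in cultured Hepa1-6.

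Cultured Hepa1-6 cells were compared with the endothelium of tumors grown from them to see which of these genes were strongest in the tumor line itself. Hnf4a was 10.5-fold higher in the cultured cells (log2 ratio 3.39), with 7.79-fold on its second probe, and Foxa3 was 6.58-fold higher (2.72). Foxa2 was 2.01-fold higher (1.01), at the edge of a 2-fold threshold, and 0.99 on the log2 scale with normexp background correction. Foxa1 went the other way and was 4.17-fold higher in Hepa1-6 TEC (-2.06). H19 was at least 6.81-fold higher in Hepa1-6 TEC by its first probe. The second H19 probe, dark in cultured cells, differed by -0.70 on the log2 scale, and no fold can be given for it.

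The classical tumor markers differed less than 2-fold between these arrays after quantile normalization. Afp was 1.45-fold higher in the cultured cells (log2 ratio 0.54), and its log2 ratio was 1.07, over 2-fold, with scaling to the 75th percentile. Gpc3 was 1.53-fold higher in Hepa1-6 TEC (-0.61), or 0.02 on the log2 scale as the mean of its probes, of which 1 was dark. Meg3 differed by -2.07 on the log2 scale, but its level in Hepa1-6 TEC was below the lowest one measurable in the cultured cells, so no fold can be given. Dlk1 could not be compared.

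The methods called a gene changed at a ratio of at least 1.5 or at most 0.66 together with a Z-score, the log2 ratio in SDs from the mean over probes, of at least 2 or at most -2. Of the 8 genes kept, 0 were called by this rule, against a background of 1.57% of all genes called higher in cultured cells and 4.97% called lower. The log2 ratios were so widely spread that a call required a 16.4-fold rise or a 21.1-fold fall, and Hnf4a came closest among the higher ones with a Z-score of 1.69. It was called, as the only 1 of the 8, with scaling to the 75th percentile, with normexp background correction and among probes present on both arrays. At a plain 2-fold threshold 3 were higher (Hnf4a, Foxa2 and Foxa3) and 3 lower (H19, Meg3 and Foxa1), where the background was 22.6% and 26.1%. These counts use normalized values also where an array was dark. With dark values at their bound 2 were lower, since Meg3 was not shown to pass 2-fold, and its log2 ratio was -0.64 with normexp and -0.28 as the mean of its probes. The median log2 ratio of the 8 genes was -0.04 and that of all genes 0.00.

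**Figure D3:**
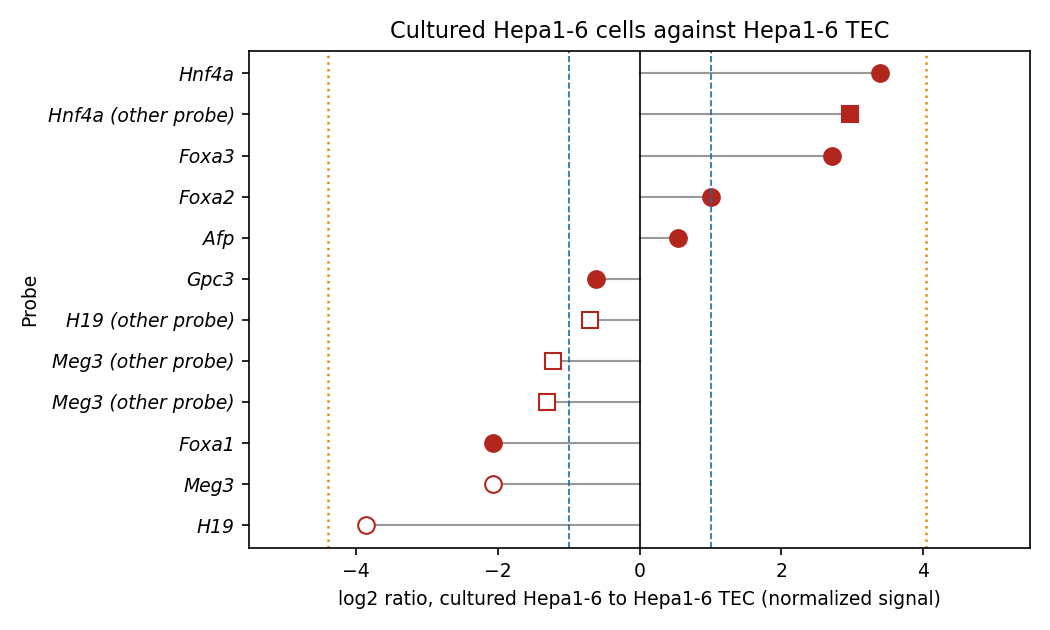
Log2 ratio of normalized signal (x axis) between cultured Hepa1-6 cells and Hepa1-6 TEC for each probe well above background on at least 1 of these arrays (y axis), with circles for the brightest probe of a gene, squares for other probes and open symbols where only Hepa1-6 TEC was well above background. Dashed lines mark 2-fold and dotted lines the 16.4-fold and 21.1-fold that the Z-score required, which no probe reached.

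The signal of Hepa1-6 TEC as a share of that in cultured cells was set beside that of 32 reference probes. These were in the top 10% of signal in cultured Hepa1-6 and dark in LSEC and the TECs of both human tumors, and 31 of them were lit in Hepa1-6 TEC. Their median share of normalized signal was 10.9%, with quartiles of 2.72% and 29.4%. Hnf4a, at 9.55%, and Foxa3, at 15.2%, lay between these quartiles. Foxa2, at 49.7%, lay above 30 of the 32 and Afp, at 68.9%, above 31. Gpc3, at 153%, and Foxa1, at 417%, lay above all 32. Without normalization the median share was 7.76% and that of Afp 45.3%. Reference probes were chosen for high signal in culture and for being dark in LSEC and the TECs of both human tumors, and the members were not. Of the members given here only Foxa1 was dark on all of those arrays, and its signal in culture was not in the top 10%. The shares thus come from unlike probes and are set side by side with no test. In bulk samples like these, fewer cells of a type and less RNA per cell cannot be told apart.

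Each TEC was then compared with the LSEC array to show how these genes differed between tumor and normal liver endothelium. The comparisons share that array, so their values are given side by side. Hepa1-6 TEC had the most genes above LSEC. Afp was 191-fold higher there, Foxa2 108-fold, Gpc3 23.1-fold, and by their brightest probes H19 11.3-fold and Hnf4a 3.17-fold. The second probes of H19 and Hnf4a, dark in LSEC, differed by 0.82 and 0.59 on the log2 scale, and no fold can be given for them. Foxa1 was at least 54.3-fold and Foxa3 at least 5.59-fold higher, while Meg3 was 2.47-fold lower. Scaled to the 75th percentile, Meg3 differed by -0.46 on the log2 scale, and the mean of its probes by -0.52, both within 2-fold. The rule of the methods called 5 of 8 genes higher (Afp, Gpc3, Foxa1, Foxa2 and Foxa3) and 0 lower, against a background of 4.54% and 2.04%. Foxa3 lost its call with normalization by pair, as the methods describe it (log2 ratio 3.31), with normexp (1.46) and among probes present on both arrays, which also dropped Foxa1. Gpc3 lost its call as the mean of its probes (2.09). H19 missed it with a Z-score of 1.99 and was called with normexp, with the deposited table and under both other filters on flags. At 2-fold 7 were higher and 1 lower, against 25.1% and 22% of all genes.

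KYN-2 TEC had Foxa2 75.4-fold higher than LSEC and Hnf4a 8.06-fold lower. H19 was 22.3-fold higher by the first probe and at least 51.7-fold by the second, and Foxa3 at least 3.21-fold higher. Afp, Gpc3 and Meg3 differed from LSEC by 0.27, 0.49 and 0.04 on the log2 scale. The rule called H19, Foxa2 and Foxa3 higher and Hnf4a lower, 3 and 1 of 7 genes, against 3.64% and 2.87%. Foxa3 lost its call with normexp (log2 ratio 0.90), with the deposited table (2.65) and among probes present on both arrays. Hnf4a lost its call with normexp (-1.85) and as the mean of its probes (-2.32). The small Meg3 difference changed sign with normexp (-0.03). The 2-fold threshold called the same counts, against 16.8% and 18.3%.

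HAK-1B TEC had H19 8.80-fold higher than LSEC by the first probe and at least 1.26-fold by the second. Gpc3 was 3.74-fold and Foxa3 at least 2.15-fold higher. Afp was 3.01-fold lower. Hnf4a was at least 18.2-fold lower and Foxa2 at least 2.06-fold lower. Meg3 differed by -0.03 on the log2 scale, or 0.27 as the mean of its probes. The rule called 1 of 7 genes higher (H19) and 2 lower (Hnf4a and Foxa2), against 3.11% and 3.94%. Foxa2 lost its call with normexp (-0.85) and among probes present on both arrays, which also dropped Hnf4a. H19 lost its call with normexp (1.96) and as the mean of its probes (2.69). At 2-fold 3 were higher and 3 lower, against 17.4% and 18%.

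H19 by its first probe and Foxa3 were thus higher than LSEC by over 2-fold in all 3 TECs, but with normexp the log2 ratio of Foxa3 was 0.66 in HAK-1B TEC, under 2-fold, as in KYN-2 TEC. Hnf4a was lower than LSEC in both TECs of human tumors and higher in Hepa1-6 TEC. The difference between the TECs was not tested, since each was 1 array.

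Cultured Hepa1-6 cells, set against LSEC, had Afp 278-fold, Foxa2 217-fold, Hnf4a 33.2-fold and Gpc3 15.1-fold higher. Foxa3 was at least 36.8-fold and Foxa1 at least 13.0-fold higher. H19 differed by -0.36 on the log2 scale, with the cultured cells not well above background, and Meg3 was at least 1.5-fold lower in them. The rule called 3 of 8 higher (Afp, Foxa2 and Foxa3) and 0 lower, against 2.59% and 4.81%, and at 2-fold 6 were higher and 1 lower, against 28.2% and 30.9%. The lower one was Meg3, whose bound of 1.5-fold does not reach that threshold.

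Hepatocyte genes were measured in the LSEC sample, and their levels are set beside those of Hnf4a and Afp. All 11 hepatocyte markers on the array were well above background there, against 11 in KYN-2 TEC, 10 in Hepa1-6 TEC, 7 in HAK-1B TEC and 4 in cultured Hepa1-6. The lit share of all probes was 54.1% in LSEC, 54.7% in KYN-2 TEC, 78.1% in Hepa1-6 TEC, 57.6% in HAK-1B TEC and 44.6% in cultured Hepa1-6. Albumin read 15.54 in Hepa1-6 TEC, 13.94 in cultured Hepa1-6, 12.97 in LSEC, 8.85 in KYN-2 TEC and 6.51 in HAK-1B TEC. HAK-1B TEC, lowest in albumin, was also lowest in Afp and Hnf4a, whereas KYN-2 TEC was far below LSEC in albumin and Hnf4a but slightly above it in Afp. The summed normalized signal of the hepatocyte list ran from 25676 in cultured Hepa1-6 to 83973 in Hepa1-6 TEC. Arg1 alone made up most of the sum in HAK-1B TEC and KYN-2 TEC. It read 14.74 and 15.03 there, against 7.29 in LSEC, and was dark in cultured Hepa1-6. The place of the cultured cells as the lowest sum therefore rests on that gene. The part of hepatocyte genes in the ratios to LSEC was not tested.

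The labelled endothelial identity was checked on 10 endothelial and 8 LSEC markers. All 18 were well above background on the LSEC array and the 3 TEC arrays, and 1 of each list, Egfl7 and Stab1, in cultured Hepa1-6. The summed signal of the endothelial list was 308333 in LSEC, 88687 in KYN-2 TEC, 48628 in Hepa1-6 TEC and 48024 in HAK-1B TEC. Of 9 leukocyte markers all 9 were well above background on each of these 4 arrays, with a summed signal of 179143 to 393014. In cultured Hepa1-6 4 were, with a summed signal of 3971. Ptprc and Cd3e read 11.04 and 8.77 there, close to 11.37 and 8.87 in Hepa1-6 TEC. These are the brightest of 7 Ptprc probes and of 2 Cd3e probes, and whether the other probes show the same was not examined. Cd68 and Csf1r were lower in the cultured cells by -5.31 and -6.98 on the log2 scale. Of 9 stellate cell and fibroblast markers 6 were well above background in LSEC, 8 in HAK-1B and KYN-2 TEC, 9 in Hepa1-6 TEC and 2 in cultured Hepa1-6. Of 7 cholangiocyte markers, 7 were well above background in Hepa1-6 TEC, 4 in KYN-2 TEC and in cultured Hepa1-6, and 2 in LSEC and HAK-1B TEC. Of all probes, 78.1% were lit in Hepa1-6 TEC, 54.7% in KYN-2 TEC, 44.6% in cultured Hepa1-6, 54.1% in LSEC and 57.6% in HAK-1B TEC. In Hepa1-6 TEC Cftr was lit at 4.42 and Lrat, of stellate cells, at 4.16. Both lay under the lowest lit signal of LSEC, KYN-2 TEC and cultured Hepa1-6. The part of these cell types in the members' levels was not tested.

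Imprinted genes beyond H19 and Meg3 were mostly not well above background in the cultured line. Of 14 on the array, 1 was well above background in cultured Hepa1-6 (Igf2r, the clearance receptor of IGF2), 11 in Hepa1-6 TEC, 10 in KYN-2 TEC, 9 in HAK-1B TEC and 8 in LSEC. Among all probes the lit shares of these arrays were 44.6%, 78.1%, 54.7%, 57.6% and 54.1%, in the same order. The count in Hepa1-6 TEC was thus near the share of its array. Of the 11 measured on either Hepa1-6 array, 9 were more than 2-fold lower in cultured cells by normalized value (26.1% of all genes) and 0 higher (22.6%). With dark values at their bound 7 were lower, without Igf2 and Ndn. The list had a median log2 ratio of -5.19, or -2.07 with each gene at its bound. Mest was at least 23.6-fold higher in Hepa1-6 TEC, and Sgce, which encodes a sarcoglycan, at least 22.0-fold. Grb10, an adaptor of growth factor receptors, was at least 8.18-fold higher.

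Rian and Mirg, noncoding RNAs of the same cluster as Meg3 and Dlk1, did not follow Meg3 among the TECs. Rian read 8.59 in Hepa1-6 TEC, against 5.16 in KYN-2 TEC, and was not well above background elsewhere. Mirg read 8.03 and 5.06 on these arrays and was likewise dark on the other 3. Rtl1, a paternally expressed gene of the cluster, was well above background in Hepa1-6 TEC alone, at 5.29. The normalized Meg3 level was the lowest of LSEC and the TECs on that same array. These genes were named after their values were seen, apart from Igf2r and Rtl1. Igf2, the neighbor of H19, read 5.42 to 6.67 in LSEC and the TECs and was not well above background in cultured Hepa1-6.

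The other oncofetal genes were split. Of 13 measured on either Hepa1-6 array, 6 were higher in cultured cells by normalized value, 5 lower and 2 within 2-fold, beside 22.6% and 26.1% of all genes. With dark values at their bound 5 were higher and 2 lower, without Prom1, Igf2, Krt19 and Lin28b. The median log2 ratio was 0.59, or 0.09 with each gene at its bound. Igf2bp1, a fetal RNA-binding protein, was higher by 2.53 on the log2 scale, Lin28a, which blocks let-7 maturation, by 2.0, and Hmga2, a chromatin protein of embryonic cells, by 1.74. Before normalization their signals in Hepa1-6 TEC were 12.5%, 52.9% and 35.8% of those in cultured cells, so Lin28a passed 2-fold only with normalization. Epcam, an adhesion protein of hepatic progenitors, was at least 7.89-fold higher in Hepa1-6 TEC. Lin28b was well above background on that array alone, at 4.33, under the lowest lit signal of all others except HAK-1B TEC.

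Known regulators of Afp differed little between the Hepa1-6 arrays. The repressors Zbtb20 and Zfhx3 had log2 ratios of 0.27 and 0.15 and the activator Nr5a2 -0.12. Zhx2, a repressor of Afp after birth, was the 1 of 4 counted as higher in cultured cells, but it was not well above background there. Zbtb20 read 12.62 in cultured Hepa1-6, 12.35 in Hepa1-6 TEC, 11.77 in LSEC, 10.75 in KYN-2 TEC and 10.43 in HAK-1B TEC.

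Of 18 other liver-enriched factors, 6 were higher in cultured cells by normalized value, 9 lower and 3 within 2-fold, beside 22.6% and 26.1% of all genes. With dark values at their bound 6 were higher and 6 lower. The median log2 ratio was -0.78, or -0.02 with each gene at its bound. Cebpa, a factor of mature hepatocytes and myeloid cells, was lower in cultured cells by -2.20 and Rxra, a partner of many nuclear receptors, by -2.24. Nr0b2 and Nr1i2 were well above background in Hepa1-6 TEC alone, at 5.05 and 4.07, the latter under the lowest lit signal of every other array.

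Genes known as targets of HNF4A and FOXA were mostly lower in cultured cells, where Hnf4a, Foxa2 and Foxa3 were higher and Foxa1 was lower. Of 16 measured on either Hepa1-6 array, 1 was higher in cultured cells (Tdo2, of tryptophan breakdown), 11 lower, also with dark values at their bound, and 4 within 2-fold, beside 22.6% and 26.1% of all genes. The median log2 ratio was -2.18, or -1.60 with each gene at its bound. Before normalization the signal of Tdo2 in Hepa1-6 TEC was 84.9% of that in cultured cells, so its 2-fold difference rests on the normalization. Ambp, the precursor of a serum protease inhibitor, was lower by -6.79 in cultured cells, Alb, the main serum protein, by -1.60 and Serpina1a, another protease inhibitor, by -1.51. Hepatocyte markers, several of which are in this list, were lower for 8 of 10, or 7 with dark values at their bound, beside 26.1% of all genes, with a median log2 ratio of -3.16.

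**Figure D4:**
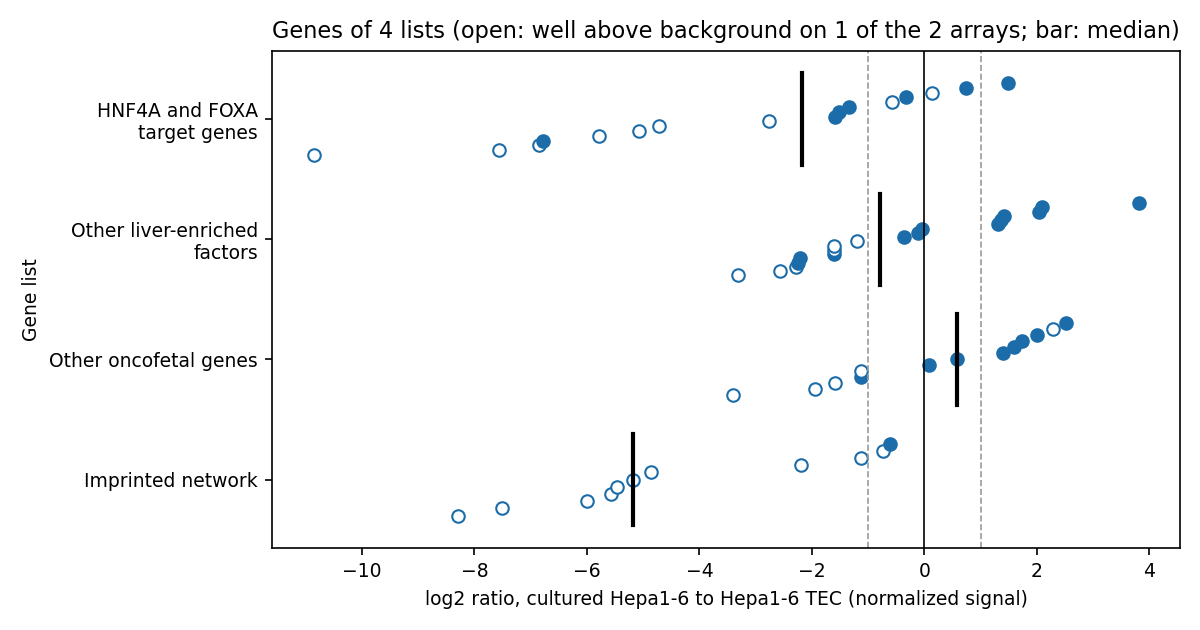
Log2 ratio of normalized signal (x axis) between cultured Hepa1-6 cells and Hepa1-6 TEC for the genes of 4 lists (y axis), 1 point per gene, filled where it was well above background on both arrays, with the median of each list as a bar and dashed lines at 2-fold. The medians lie at -5.19 for the imprinted genes, 0.59 for other oncofetal genes, -0.78 for other liver-enriched factors and -2.18 for target genes.

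The genes with the most similar profile were found for each member lit in cultured Hepa1-6, as the smallest distance between log2 levels over the 5 arrays, each centered on its mean, among genes well above background on the same arrays. For Afp, Krt8, a keratin of simple epithelia, was nearest among 13822 genes at a distance of 1.61, with 15.27 in cultured Hepa1-6, 14.13 in Hepa1-6 TEC and 6.80 to 8.40 elsewhere. Rhox5 and Pcbd1 followed. The nearest genes to Gpc3 were Rundc3a, Znrf3 and Palmd, at 0.54 to 0.91. For Foxa1 they were Slc47a2, Hoxb13 and Tmprss2 among 699 genes, at 0.55 to 0.80. All 3 were higher in Hepa1-6 TEC than in the cultured line, as their choice by closeness to Foxa1 required.

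Foxa3 had Tlcd1, Kif18b and Nek2 nearest among 270 genes, at 0.36 to 0.56, of which the latter pair act in mitosis. Hnf4a and Foxa2 had few genes with the same lit arrays, 59. The nearest to Hnf4a were Ifi27l2b, Ngef and Cep112, at 2.05 to 2.57. Foxa2 was matched most closely by Grb7, an adaptor protein, at 2.68, which read 12.41 in Hepa1-6 TEC, 10.06 in KYN-2 TEC and 12.74 in cultured Hepa1-6, and less by Dnajc22 and Cgn, at 4.95 and 5.37.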

How the data were processed

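Cy3-labelled RNA was hybridized to Agilent mouse 60-mer arrays, 1 per condition. The authors deposited linear scanner intensity values for every spot, with the background of that array subtracted and no normalization across arrays, and also quantile normalized intensities (median 42.96 in each column), which served as an alternative. The labels give Feature Extraction 9.5.1.1 and the file headers 10.7.1.1, and the labels and the methods name different RNA kits. The deposited probe names, flags and mm9 positions were used.

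Control spots were left out, spots of 1 probe averaged, log2 taken and the 5 arrays quantile normalized together. The methods normalize the samples compared. Each gene was read from its brightest probe by mean signal over the arrays. Ratios were called by the rule of the methods, without lincRNA probes, and at 2-fold among genes well above background on at least 1 of the arrays compared. A lower bound set the brighter level against the higher of the dim probe's own and the lowest level well above background on that array. The number of arrays limits the precision, and no test was possible. No array had a saturated spot.

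The 9 genes and the 11 gene lists were chosen with earlier results of these data known, and the printed probes, the promoter and its motif letters after values or sequence had been seen. The genes named were all members, up to 3 genes of each list with the largest ratio between the Hepa1-6 arrays among genes measured on both, those lit on a Hepa1-6 array alone, and the 3 genes nearest to each member. Some genes that this rule takes are not reported here. Other list genes that are named were chosen after their values were seen. Probes and promoters were matched by symbol. The rule was tested on simulated data. Python 3.11.15, numpy 2.4.6, pandas 2.3.3 and matplotlib 3.10.9 were used, with limma 3.58.1 in R 4.3.3 for normexp background correction (offset 50). The other alternatives were scaling to the 75th percentile, pairwise normalization, the deposited table, other filters on flags, the mean of all probes, a 2-fold rule and no Z-score. MicroRNA arrays and treated tumors were not analysed here.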

Additional observations from a re-analysis of the deposited data

Results flagged for a closer look

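Hnf4a had opposite signs against LSEC in the 3 TECs, with log2 ratios of 1.67 in Hepa1-6 TEC, -3.01 in KYN-2 TEC and -4.52 in HAK-1B TEC. It was not well above background in HAK-1B TEC, so the last value is no measured fold. Foxa2 was 6.24 above LSEC on the log2 scale in KYN-2 TEC, and its value in HAK-1B TEC, also not well above background, was -3.06. Each contrast was 1 array against the same LSEC array, and the difference between the TECs was not tested.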

How the results depend on the processing

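The count of members called between cultured Hepa1-6 and Hepa1-6 TEC was 0, and it was 1 (Hnf4a) with scaling to the 75th percentile, with normexp background correction and with probes present on both arrays, 6 at 2-fold and 7 without the Z-score. Against LSEC, the 3 calls in HAK-1B TEC became 1 with normexp (Hnf4a), 1 with probes present on both arrays (H19), and 6 at 2-fold and without the Z-score. The 5 calls in Hepa1-6 TEC became 4 with normalization by pair, with the mean of all probes and with probes present on both arrays, 6 with the deposited table and without the filter on flags, and 8 at 2-fold and without the Z-score. The 4 in KYN-2 TEC became 2 with normexp (H19 and Foxa2) and 3 with the deposited table, with probes present on both arrays and with the mean of all probes, and the 3 in cultured cells became 5 without the filter on flags and 7 at 2-fold and without the Z-score. With genes present on both arrays alone, median log2 ratios of cultured Hepa1-6 to Hepa1-6 TEC were 1.5 for oncofetal genes, -0.61 for the imprinted genes (Igf2r alone), 0.016 for cholangiocyte markers (main value -1.13) and 1.15 for stellate cell and fibroblast markers (main value -2.37), and against LSEC they were 0.76 for hepatocyte and 3.02 for stellate cell and fibroblast markers. With normexp the cholangiocyte median was -0.69. This filter leaves out genes dark in cultured cells, and the cause of the other changes was not tested. Scaling to the 75th percentile moved the median of all genes by -0.26 between the Hepa1-6 arrays and to 0.43 for Hepa1-6 TEC against LSEC. Over 5 scalings and background corrections, the log2 ratio of cultured Hepa1-6 to Hepa1-6 TEC ran from 0.52 to 1.07 for Afp, -0.63 to -0.43 for Gpc3, 3.34 to 3.86 for Hnf4a, -2.09 to -1.87 for Foxa1, 0.99 to 1.55 for Foxa2, 2.21 to 2.72 for Foxa3 and -4.42 to -2.28 for H19, with no change of sign. No paired analysis was possible because a single array stood for each group. Leaving out an array and fitting the slide as a block could not be run either: the 3 TEC arrays were on 1 slide and LSEC and cultured cells each on another, so the slide cannot be told apart from the group.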
